A study of Mus musculus with 7 samples.

Results

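The genes described here encode the subunits, activators and assembly factors of the proteasome. They were chosen by symbol, as protein-coding mouse genes named Psma, Psmb, Psmc, Psmd, Psme or Psmf followed by a number in the GENCODE M21 annotation, and 46 of the 46603 genes in the count files met this rule. Expression was measured by RNA-seq in pieces of tumors grown from mouse embryonic fibroblasts (MEFs). KO tumors came from MEFs in which nuclear myosin 1 (NM1), a nuclear form of the motor protein myosin IC, had been deleted with CRISPR/Cas9. KO+NM1 tumors came from the same NM1 KO cells after a lentivirus had brought back NM1 fused to HA and V5 tags, with neomycin selection and single clones. Both kinds of cells were injected into female Balb/c nude mice, aged 16 weeks, and tumors were taken after 30 days according to the sample descriptions, while the methods of the study give a shorter time. The site is the right flank in the sample descriptions and in the methods, and the mammary pad in the results of the study. Nude mice lack a thymus and most T cells, but keep B cells, NK cells and myeloid cells. The comparison asks how the proteasome genes differ between tumors without NM1 and tumors with NM1 put back.

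There were 3 KO libraries and 4 KO+NM1 libraries, and by the sample descriptions the pieces of a condition come from 1 tumor that was cut in 4. The errors and p-values below therefore cover the spread between pieces and may hold no difference between mice or between clones. Total counts were 24088309 to 28326568 per library. Mitochondrially encoded genes took 1.81% to 2.14% of the counts in KO and 5.11% to 18.5% in KO+NM1 pieces. With them left out 34 proteasome genes and 25.7% of all genes were called higher in KO, as with them. Libraries of bulk tissue mix injected cells with host cells, whose transcripts were not told apart, and fewer cells of a type and less RNA per cell cannot be told apart. Reads on Myo1c, the gene that encodes NM1 among other isoforms, were lower in KO pieces (log2 fold change -0.43, SE 0.13, adjusted p = 0.031, edgeR quasi-likelihood test), and these gene-level counts hold all isoforms together. The call of Myo1c held in 10 of 16 alternative settings and was lost without any 1 KO piece, and with library size alone the log2 fold change was -0.25 (adjusted p = 0.297, edgeR).

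The proteasome is the protease that degrades proteins tagged with ubiquitin. Its 20S core is a barrel of outer α rings and inner β rings. Psmb5, Psmb6 and Psmb7 encode the catalytic β subunits of the constitutive core. In cells exposed to interferon, and in many leukocytes without it, the immune subunits Psmb8, Psmb9 and Psmb10 take the places of Psmb5, Psmb6 and Psmb7 respectively, which changes the peptides made for MHC class I. The 19S regulatory particle binds ubiquitin chains and unfolds the substrate with a ring of ATPases, and activators such as PA28 and PA200 can bind the core in its place.

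Of the 46 genes, 44 passed the low-count filter. Psma8, the α subunit of the testis, and Psmb11, the β subunit of the thymus cortex, did not pass. Psma8 held at most 14 counts and Psmb11 at most 2 counts in any library. Psmc3ip matched the symbol rule but encodes a protein of meiotic recombination and is no part of the proteasome. Its difference did not pass the test (log2 fold change 0.42, SE 0.25, adjusted p = 0.194, edgeR). Psmd5, Psmd9 and Psmd10 encode chaperones that help to assemble the regulatory particle and leave it afterwards.

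Transcripts of most proteasome genes were more abundant in KO tumor pieces. Of the 44 genes tested, 34 were higher in KO and 0 were lower at an adjusted p under 0.05, while 10 were not called. These counts and those below include Psmc3ip, without which 34 of 43 were higher. Among all 16887 genes tested, 25.7% were higher and 24.5% were lower by the same rule, against 77.3% of the proteasome genes higher. DESeq2 called 31 proteasome genes higher and limma voom 39, where they called 27.5% and 41.7% of all genes higher. Both called 0 proteasome genes lower, against 5177 of 16239 and 5951 of 16887 genes over all. The median log2 fold change, KO minus KO+NM1, was 0.71 with a range of -0.06 to 1.64 over the proteasome genes, and -0.00 with quartiles of -1.02 and 0.80 over all genes tested. In 36 of the 44 genes the KO pieces all lay above the KO+NM1 pieces without overlap, and in 0 all lay below, against 30.5% and 26.4% of all genes. Levels are given as CPM, the read count relative to the TMM-scaled library size. Among all genes with a mean of at least 20 CPM, 31.1% were higher and 21.1% lower in KO, and in 36.3% the KO pieces lay above without overlap. A change of at least 2-fold was reached by 12 proteasome genes, 27.3% of those tested and all higher in KO, against 17.1% of all genes higher and 20.3% lower at that size. With any 1 KO piece left out, 20 or 21 proteasome genes were called higher, against 16.7% to 17.4% of all genes.

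**Figure D1:**
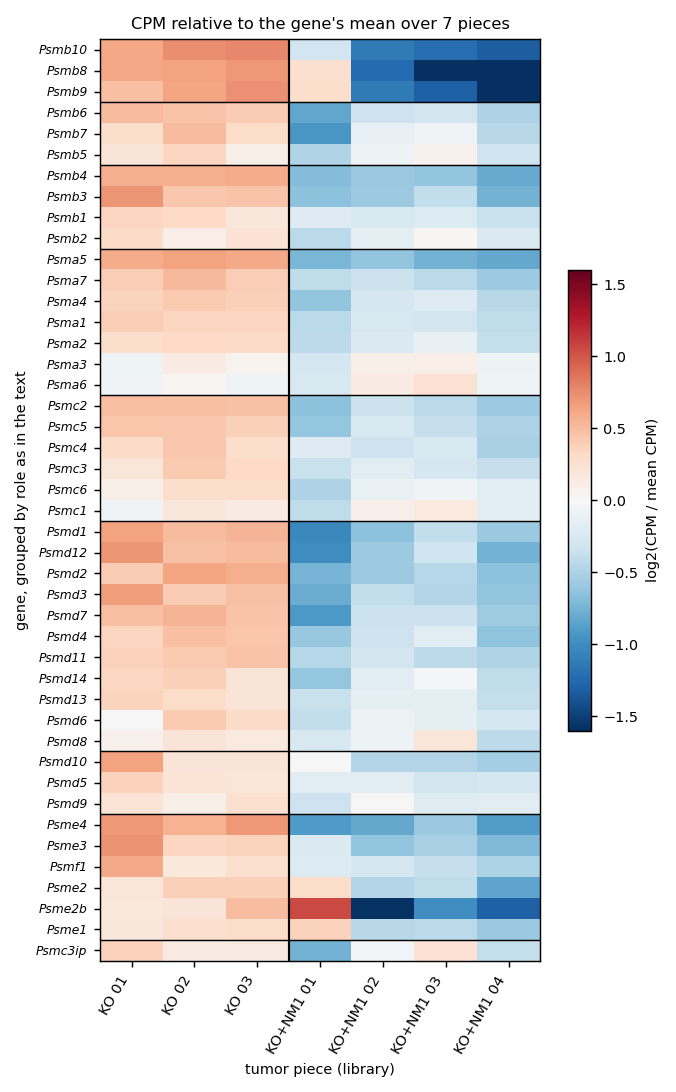
Heat map of the 44 tested genes (rows, grouped by role) in the 7 tumor pieces (columns), coloured by the log2 of CPM over the mean CPM of the gene in all 7 pieces. The 3 KO columns are red for nearly all genes, and KO+NM1 piece 01 is red for Psmb8, Psmb9, Psme1, Psme2 and Psme2b, where the other KO+NM1 pieces are blue.

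The libraries also differed in other cell types, and in KO+NM1 piece 01 most of all. B and plasma cell markers (Cd79a and 4 others) summed to 2786 CPM in KO+NM1 piece 01, 2.71 to 10.6 CPM in KO+NM1 pieces 02 to 04 and 8.03 to 31.7 CPM in KO pieces. The mean correlation of this piece with the other pieces of its group was 0.858, against 0.939 to 0.975 for the other libraries. Skeletal muscle markers summed to 1938 to 17528 CPM in KO and 5.78 to 24.7 CPM in KO+NM1 pieces, and white adipocyte markers to 8.43 to 103 CPM in KO and 1974 to 17033 CPM in KO+NM1 pieces. Between the KO pieces muscle markers were 1938 CPM in piece 01, 17528 CPM in piece 02 and 13696 CPM in piece 03, while the median over the 44 tested proteasome genes was 161, 174 and 173 CPM. Fibroblast markers, the lineage of the injected cells, summed to 5367 to 9512 CPM in KO and 1963 to 7745 CPM in KO+NM1 pieces, mostly from the collagen genes Col1a1 and Col1a2. Of these 6 markers 0 were called higher and 3 were called lower in KO, namely Pdgfra (log2 fold change -1.47), Pdgfrb (-1.58) and Dcn (-2.72). The part of these cells in the proteasome differences was not tested. Without KO+NM1 piece 01, 34 proteasome genes were again higher and 0 lower, 31 of them shared with the comparison of all 7 libraries. Psmb2, Psmc6 and Psmd6 were no longer called, Psme1, Psme2 and Psme2b were called in addition, and the share of all genes called higher was 35.8%.

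**Figure D2:**
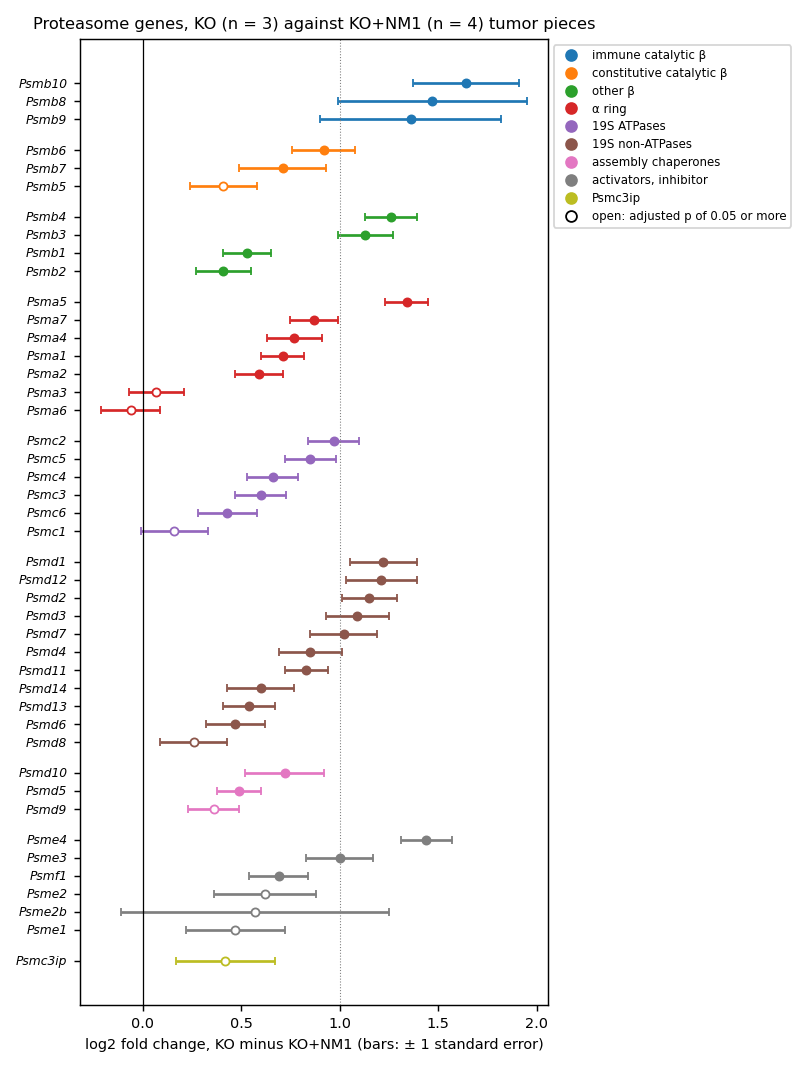
Log2 fold change of each tested gene, KO (n = 3 pieces) minus KO+NM1 (n = 4 pieces), with bars of 1 standard error, grouped by role. Filled points passed an adjusted p under 0.05 and open points did not, the dotted line marks a 2-fold change, and 43 of the 44 points lie above 0.

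The α subunits form the outer rings of the core and the gate through which substrates enter. Of the 7 tested, 5 were higher in KO, with a median log2 fold change of 0.71. Psma5 differed most. Its level was 140, 145 and 142 CPM in KO pieces 01 to 03 and 56.1, 60.2, 55.3 and 52.6 CPM in KO+NM1 pieces 01 to 04, so the groups lay far apart with little spread in either (log2 fold change 1.34, SE 0.11, adjusted p = 0.000351, edgeR). Psma7 was at 234, 255 and 235 CPM in KO and 135, 141, 132 and 119 CPM in KO+NM1 pieces (log2 fold change 0.87, SE 0.12, adjusted p = 0.00158, edgeR). Psma6 was the single proteasome gene with a value below 0. It was at 116, 124 and 115 CPM in KO and 101, 133, 143 and 115 CPM in KO+NM1 pieces, and the groups overlapped (log2 fold change -0.06, SE 0.15, adjusted p = 0.779, edgeR). Psma3 did not pass the test either, with a log2 fold change of 0.07 and overlapping groups. The signs of Psma6 and Psma3 depended on the scaling of the libraries.

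The β subunits without protease activity, Psmb1 to Psmb4, were all higher in KO (4 of 4, median log2 fold change 0.83). Psmb4 had the highest level of the core genes per kilobase of principal transcript in KO pieces, with a median of 364 CPM per kb, and 154 CPM per kb in KO+NM1 pieces. Its level was 429, 431 and 434 CPM in KO and 177, 191, 186 and 164 CPM in KO+NM1 pieces, a difference much larger than the spread within either group (log2 fold change 1.26, SE 0.13, adjusted p = 0.000601, edgeR). Psmb3 was at 229, 189 and 193 CPM in KO and 89.1, 93.6, 107 and 83.1 CPM in KO+NM1 pieces (log2 fold change 1.13, SE 0.14, adjusted p = 0.00118, edgeR). Psmb2 was the smallest of the 4 (0.41, SE 0.14). Its call held in 4 of 16 alternative settings, and was lost without any 1 KO piece, with DESeq2 size factors or upper-quartile scaling, and without KO+NM1 piece 01 (log2 fold change 0.21, adjusted p = 0.116, edgeR).

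The catalytic subunits of the constitutive core were higher in KO in 2 of 3 cases, with a median log2 fold change of 0.71. Psmb6, which carries the caspase-like activity, was at 261, 252 and 245 CPM in KO and 104, 147, 151 and 131 CPM in KO+NM1 pieces (log2 fold change 0.92, SE 0.16, adjusted p = 0.0034, edgeR). Psmb7, the trypsin-like subunit, was at 118, 139 and 119 CPM in KO and 51.3, 89.1, 93.9 and 71.9 CPM in KO+NM1 pieces (log2 fold change 0.71, SE 0.22, adjusted p = 0.032, edgeR). In both genes the lowest KO piece lay above the highest KO+NM1 piece, and KO+NM1 piece 01 was the lowest of all. The call of Psmb7 held in 8 of 16 alternative settings and was lost without any 1 KO piece. Psmb5, the chymotrypsin-like subunit and the main target of the drug bortezomib, was at 56.3, 61.9 and 51.7 CPM in KO and 34.7, 45.9, 50.8 and 39.1 CPM in KO+NM1 pieces, and its difference did not pass the test (log2 fold change 0.41, SE 0.17, adjusted p = 0.0757, edgeR).

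The bases before the start of Psmb5 and Psmb6 are shown because both hold the core of the antioxidant response element, the sequence read by Nfe2l1, the factor that raises proteasome subunit genes when proteasome activity falls. They are RefSeq promoters on GRCm38.p6, read 5′ to 3′ on the strand of the gene, and the capitals mark TGACNNNGC.
Psmb5, chr14:54618023-54618245, minus strand: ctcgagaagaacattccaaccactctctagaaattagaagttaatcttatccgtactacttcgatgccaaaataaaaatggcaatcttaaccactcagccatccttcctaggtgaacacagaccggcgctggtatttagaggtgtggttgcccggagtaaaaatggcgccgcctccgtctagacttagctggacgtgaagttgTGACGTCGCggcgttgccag
Psmb6, chr11:70525107-70525356, plus strand: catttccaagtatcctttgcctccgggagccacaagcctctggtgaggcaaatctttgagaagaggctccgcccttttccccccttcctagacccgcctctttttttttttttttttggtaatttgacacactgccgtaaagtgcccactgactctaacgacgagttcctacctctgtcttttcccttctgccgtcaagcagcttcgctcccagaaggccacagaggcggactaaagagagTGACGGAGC

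Both stretches lie outside GENCODE exons, and the match begins at base -47 from the start in Psmb5 and at base -9 in Psmb6. Promoters were matched by symbol for 39 of the 46 genes (42 promoters of 300 bases, from 250 before to 50 after the start), and Psmb7 was among the genes not matched. With both strands searched, TGACNNNGC was found in 14.3% of these 42 promoters and in 12.4% of all 32851 promoters. The genes with a match were Psmb5, Psmb6, Psmc6, Psmd9, Psmd12 and Psme4, of which Psmb5 and Psmd9 were not called higher in KO.

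All 3 immune subunits were called higher in KO (median log2 fold change 1.47). Psmb8 was at 364, 372 and 385 CPM in KO and 283, 99.8, 78.0 and 78.6 CPM in KO+NM1 pieces. Psmb9 was at 183, 203 and 219 CPM in KO and 159, 59.9, 52.9 and 42.8 CPM in KO+NM1 pieces. Psmb10 was at 237, 257 and 262 CPM in KO and 124, 70.0, 66.1 and 61.5 CPM in KO+NM1 pieces. All KO pieces were above all KO+NM1 pieces in each gene, and KO+NM1 piece 01 stood between the KO pieces and the other KO+NM1 pieces.

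The fitted log2 fold changes were 1.47 for Psmb8 (SE 0.48, adjusted p = 0.0386), 1.36 for Psmb9 (SE 0.46, adjusted p = 0.0417) and 1.64 for Psmb10 (SE 0.27, adjusted p = 0.00256), all by edgeR. Without KO+NM1 piece 01 the log2 fold changes were 2.00, 1.83 and 1.81, with adjusted p-values of 1.86e-05, 4.9e-05 and 1.19e-05 (edgeR). The call of Psmb10 held in 16 of 16 alternative settings, that of Psmb8 in 8 and that of Psmb9 in 7. Without a single KO piece, whichever it was, Psmb8 and Psmb9 were not called. Per kilobase of principal transcript, the median level of Psmb8 was 228 CPM per kb in KO and 54.8 CPM per kb in KO+NM1 pieces, and that of Psmb5 was 62.7 and 47.3 CPM per kb.

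**Figure D3:**
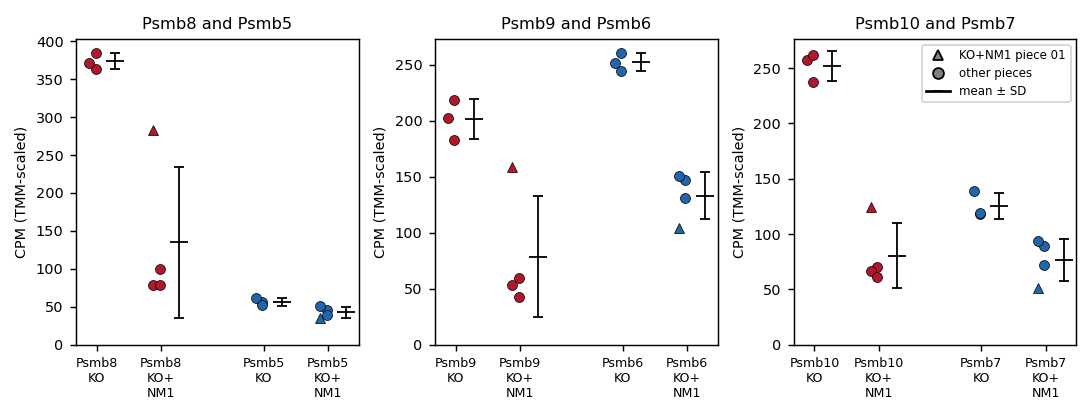
CPM of each immune subunit (red) beside the constitutive subunit it replaces (blue) in single KO (n = 3) and KO+NM1 (n = 4) pieces, with the mean ± SD in black. KO+NM1 piece 01 (triangle) is the highest KO+NM1 piece for Psmb8, Psmb9 and Psmb10 and the lowest for Psmb5, Psmb6 and Psmb7.

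Whether the immune subunits differed more than their constitutive partners was tested on the log2 ratio of the raw counts of each pair within a library, which does not depend on how libraries are scaled. For Psmb8 to Psmb5 the log2 ratio was 2.69, 2.59 and 2.90 in KO and 3.03, 1.12, 0.62 and 1.01 in KO+NM1 pieces. For Psmb9 to Psmb6 it was -0.51, -0.31 and -0.16 in KO and 0.61, -1.29, -1.51 and -1.61 in KO+NM1 pieces. For Psmb10 to Psmb7 it was 1.00, 0.89 and 1.13 in KO and 1.28, -0.35, -0.51 and -0.23 in KO+NM1 pieces. In each pair KO+NM1 piece 01 lay above every KO piece, and KO+NM1 pieces 02 to 04 lay below every KO piece.

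The mean log2 ratio of Psmb8 to Psmb5 was 2.73 ± 0.157 (SD, n = 3) in KO and 1.44 ± 1.08 (SD, n = 4) in KO+NM1, a difference of 1.28 (two-sided exact permutation test, p = 0.229). The difference was 0.63 for Psmb9 to Psmb6 (exact permutation p = 0.286) and 0.96 for Psmb10 to Psmb7 (exact permutation p = 0.229), and the Benjamini-Hochberg adjusted p over the 3 pairs was 0.286 for each. The 7 libraries can be divided 3 against 4 in 35 ways, so the least share in 1 tail is 0.0286. The two-sided p doubles the smaller tail, so it could not fall under 0.05 with these libraries. With all pieces the test therefore cannot decide whether the immune subunits differed more than their partners, and no conclusion is drawn from it. Without KO+NM1 piece 01 the differences were 1.81, 1.15 and 1.37, each with an exact permutation p of 0.1, the smallest that 3 against 3 libraries can give.

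**Figure D4:**
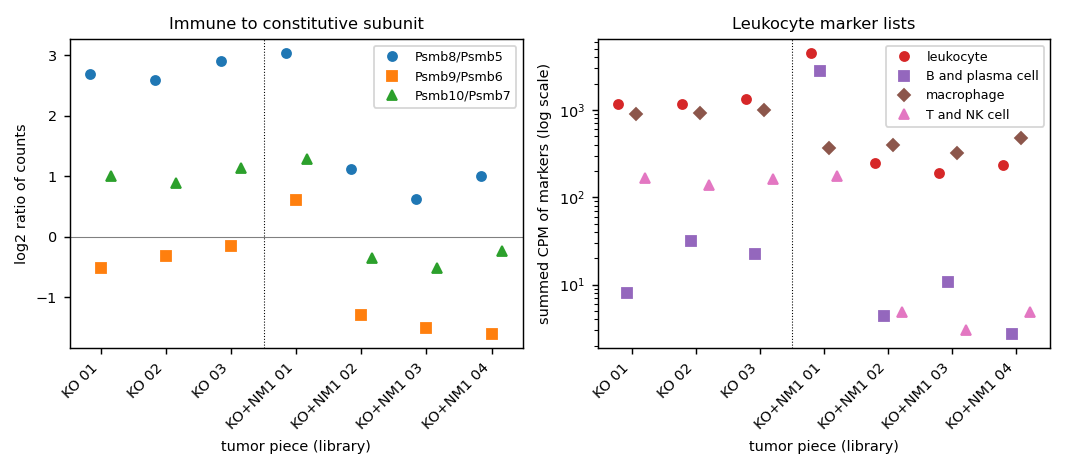
Left, log2 ratio of raw counts of each immune subunit to its constitutive partner in each piece; right, summed CPM of the markers of leukocytes, B and plasma cells (5 genes), macrophages and T and NK cells (6 genes each), on a log axis. KO+NM1 piece 01 has the highest log2 ratio in each pair (3.03, 0.61 and 1.28) and the highest sum of leukocyte markers, 4430 CPM.

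Among the KO+NM1 pieces the sum of leukocyte markers, like the immune subunits, was highest in piece 01, which rests on 1 library. The 6 leukocyte markers (Ptprc and Coro1a among them) summed to 1164 to 1322 CPM in KO pieces, 4430 CPM in KO+NM1 piece 01 and 189 to 248 CPM in pieces 02 to 04. Those of T and NK cells summed to 139 to 166, 173 and 3.01 to 4.92 CPM in the same order. Dendritic cell markers summed to 48.0 to 56.4, 267 and 41.1 to 44.2 CPM, but 2 of these 6, Cd209a (log2 fold change -3.18) and Zbtb46 (-1.33), were called lower in KO and 0 higher. Macrophage markers were 895 to 1004 CPM in KO, 364 CPM in KO+NM1 piece 01 and 324 to 476 CPM in pieces 02 to 04, with 5 of 6 called higher and 1, Cd14, called lower in KO. Of the 6 leukocyte markers, 5 B and plasma cell markers and 6 T and NK cell markers, 0 were called in either direction at the adjusted p (edgeR). The orders were not the same throughout, since piece 01 held more leukocyte marker reads than any KO piece but less Psmb8, Psmb9 and Psmb10. The part of leukocytes in the immune subunits was not tested.

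Piece 01 was also set against pieces 02 to 04 in the constitutive and the immune genes. Of the 31 genes of the constitutive core and the regulatory particle, 20 were lower in piece 01 than in each of pieces 02 to 04, 2 were higher and 9 lay between them, with a median ratio of piece 01 to the mean of the others of 0.854. The same ratio was 3.31 for Psmb8, 3.07 for Psmb9 and 1.89 for Psmb10. It was 0.766 for Psmb5, 0.73 for Psmb6 and 0.604 for Psmb7. These counts and ratios rest on single libraries and have no test. The same counts were not made over all genes, and this piece was the least correlated with its group. The counts are thus not read as a trait of these genes.

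For Psmb8, the 29 bases around its single match to a gamma-activated site, a motif known from genes that interferon-γ induces, are shown with TTCNNNGAA in capitals. The match begins at base -97 from the RefSeq start, in a stretch that GENCODE holds as exon. In GENCODE this stretch lies within the bounds of Psmb8 itself (34197721 to 34201454, plus strand), after its annotated start. Whether the exon belongs to Psmb8 or to another gene was not recorded here.
Psmb8, chr17:34198088-34198116, plus strand: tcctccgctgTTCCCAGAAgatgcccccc

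This motif was found in 4.76% of the promoters of proteasome genes (Psmb8 and Psmd2) and in 8.3% of all promoters, and the interferon-stimulated response element in 9.52% (Psmb3, Psmd4, Psmd9 and Psme1) and 3.44%. In the promoters of Psmb9 and Psmb10 neither was found in these windows. CCAAT was found in 35.7% and 37.4%, and the E-box CACGTG in 9.52% and 7.15%.

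The ATPases of the 19S base unfold substrates and thread them into the core. Of the 6 genes, 5 were higher in KO, with a median log2 fold change of 0.63. Psmc2 was at 210, 210 and 208 CPM in KO and 95.7, 119, 112 and 101 CPM in KO+NM1 pieces (log2 fold change 0.97, SE 0.13, adjusted p = 0.00129, edgeR). Psmc5 was at 229, 228 and 220 CPM in KO and 110, 142, 131 and 120 CPM in KO+NM1 pieces (log2 fold change 0.85, SE 0.13, adjusted p = 0.00237, edgeR). Neither gene overlapped between the groups. Psmc1 was not called (log2 fold change 0.16, SE 0.17, adjusted p = 0.477, edgeR), and its groups overlapped.

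The other subunits of the regulatory particle include the ubiquitin receptor Psmd4, the scaffolds Psmd1 and Psmd2 and the deubiquitinase Psmd14. Of the 11 genes, 10 were higher in KO, 5 of them at least 2-fold, with a median log2 fold change of 0.85. Psmd1 was at 240, 219 and 225 CPM in KO and 75.4, 97.8, 117 and 102 CPM in KO+NM1 pieces (log2 fold change 1.22, SE 0.17, adjusted p = 0.00146, edgeR). Psmd12, a scaffold of the lid, was at 206, 174 and 178 CPM in KO and 63.1, 84.0, 101 and 74.6 CPM in KO+NM1 pieces (log2 fold change 1.21, SE 0.18, adjusted p = 0.00206, edgeR). In both genes piece 01 was the lowest of all pieces. Psmd2, Psmd3 and Psmd7 were also past 2-fold, with log2 fold changes of 1.15, 1.09 and 1.02. Psmd8 did not pass the test (0.26, SE 0.17).

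Of the 3 assembly chaperones with Psmd names, 2 were higher in KO (median log2 fold change 0.49). Psmd10, also known as gankyrin, was at 52.8, 38.9 and 38.9 CPM in KO and 33.6, 24.5, 24.5 and 23.2 CPM in KO+NM1 pieces, with piece 01 of each group above the others (log2 fold change 0.72, SE 0.20, adjusted p = 0.0195, edgeR). This call held in 9 of 16 alternative settings, and without KO piece 01 the log2 fold change was 0.44 (adjusted p = 0.137, edgeR). Psmd5 was at 63.6, 57.1 and 56.1 CPM in KO and 43.5, 43.4, 40.3 and 40.6 CPM in KO+NM1 pieces (log2 fold change 0.49, SE 0.11, adjusted p = 0.0102, edgeR). Psmd9 missed the threshold with an adjusted p of 0.0514 (edgeR), and 25.5% of its exon bases overlap a gene on the other strand.

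Of the 6 activator and inhibitor genes, 3 were higher in KO (median log2 fold change 0.66). Psme4, which encodes PA200, a nuclear activator, was at 157, 143 and 158 CPM in KO and 51.8, 55.4, 64.8 and 52.3 CPM in KO+NM1 pieces, with no overlap (log2 fold change 1.44, SE 0.13, adjusted p = 0.000446, edgeR). Psme3, the PA28γ activator of the nucleus, was at 230, 178 and 180 CPM in KO and 119, 90.4, 97.5 and 85.5 CPM in KO+NM1 pieces (log2 fold change 1.00, SE 0.17, adjusted p = 0.00312, edgeR). Psmf1, which encodes the inhibitor PI31, was at 67.6, 49.9 and 53.2 CPM in KO and 38.3, 36.7, 34.4 and 31.3 CPM in KO+NM1 pieces (log2 fold change 0.69, SE 0.15, adjusted p = 0.00833, edgeR). These 3 genes were higher in every KO piece than in any KO+NM1 piece.

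Psme1 and Psme2 encode PA28α and PA28β, the activator that interferon-γ induces together with the immune subunits. Psme1 was at 205, 217 and 222 CPM in KO and 232, 133, 134 and 120 CPM in KO+NM1 pieces, where piece 01 was the highest of all 7 (log2 fold change 0.47, SE 0.25, adjusted p = 0.153, edgeR). Psme2 was at 116, 132 and 132 CPM in KO and 124, 73.2, 76.8 and 56.3 CPM in KO+NM1 pieces (log2 fold change 0.62, SE 0.26, adjusted p = 0.0886, edgeR). Psme2b, a copy of Psme2 that may share reads with it, was at 7.59 CPM in piece 01 and at most 5.15 CPM elsewhere, and was not called (log2 fold change 0.57, SE 0.68, adjusted p = 0.514, edgeR). Without piece 01 all 3 were called higher in KO, with log2 fold changes of 0.61, 0.75 and 1.45 and adjusted p-values of 0.00103, 0.00232 and 0.00201 (edgeR).

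Related genes were counted in the same fit, where 25.7% of all genes were higher and 24.5% were lower in KO. Of 7 further subunits and core assembly factors, 3 were higher in KO and 0 lower (median log2 fold change 0.23), led by the assembly chaperone Psmg4 (1.08, SE 0.22, adjusted p = 0.00644, edgeR) and Psmg3 (0.62, SE 0.21, adjusted p = 0.0395, edgeR), whose call held in 6 of 16 alternative settings. Of 10 enzymes and ubiquitin shuttles that bind the proteasome, 7 were higher and 0 lower (median 0.80), led by the deubiquitinase Usp14 (1.12, SE 0.14, adjusted p = 0.0011, edgeR) and the ligase Ube3c (1.03, SE 0.13, adjusted p = 0.0011, edgeR). Of 6 ubiquitin and E1 genes, 2 were higher and 0 lower (median 0.44), a share near that of all genes. They were the ubiquitin-activating enzymes Uba6 (1.35, SE 0.26) and Uba1 (0.74, SE 0.15).

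Of 4 genes that act in the transcription of proteasome genes, 0 were higher and 1 was lower in KO (median log2 fold change -0.32), and the share lower was near the 24.5% of all genes. Ngly1, the glycanase that processes the Nfe2l1 protein, was at 11.5, 19.5 and 21.2 CPM in KO and 41.3, 53.9, 60.4 and 51.7 CPM in KO+NM1 pieces (log2 fold change -1.57, SE 0.24, adjusted p = 0.00259, edgeR). Nfe2l1 was at 346, 439 and 435 CPM in KO and 369, 632, 738 and 553 CPM in KO+NM1 pieces, with overlap, and did not pass the test (log2 fold change -0.49, SE 0.26, adjusted p = 0.154, edgeR).

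Of 11 genes that transport and load peptides on MHC class I, 5 were higher and 0 lower in KO (median log2 fold change 0.70). Nlrc5, the transactivator of class I genes, was at 172, 179 and 216 CPM in KO and 52.7, 23.2, 26.4 and 19.9 CPM in KO+NM1 pieces (log2 fold change 2.63, SE 0.35, adjusted p = 0.00138, edgeR), and Erap1, a peptide-trimming enzyme, had a log2 fold change of 0.95 (SE 0.11, adjusted p = 0.000961, edgeR). The class I genes themselves did not pass the test, with log2 fold changes of 0.05 for B2m, 0.08 for H2-K1 and -0.24 for H2-D1, which were named after their values were seen. Tap1, the peptide transporter, was at 374, 391 and 429 CPM in KO and 290, 67.2, 55.9 and 64.6 CPM in KO+NM1 pieces. It was not called (log2 fold change 1.74, SE 0.61, adjusted p = 0.05, edgeR), though its groups did not overlap. Tap1 lies beside Psmb9 on chromosome 17 on the other strand. The 2 genes share 212 exon bases, 5.79% of the exon bases of Psmb9. Since the strand setting of the counting is not given in the sources used here, reads in that overlap could count for either or for neither gene. Other catalytic genes overlap more of their exon bases. Psmb8 shares 14.7% with Gm20496 and Psmb7 11.8% with Nek6 on the other strand, and Psmb5 12.1% with Mir686 on its own strand. The part of these overlaps in the levels and log2 ratios was not tested.

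Of 13 genes of interferon signalling, 9 were higher in KO, each at least 2-fold, and 1 was lower (median log2 fold change 1.59). Of the calls higher, that of Irf7 held in 5 of 16 alternative settings and those of Ifit3 and Oas1a in 9. That of Stat2 held in 15, and those of Irf1, Ifit1, Isg15, Gbp2 and Gbp3 in all 16. Gbp2, a guanylate-binding GTPase, was at 569, 634 and 757 CPM in KO and 60.9, 65.5, 62.7 and 57.8 CPM in KO+NM1 pieces (log2 fold change 3.40, SE 0.15, adjusted p = 0.000185, edgeR), and Gbp3 had the same log2 fold change (SE 0.28). Ifngr1, a chain of the interferon-γ receptor, was lower (-0.52, SE 0.14, adjusted p = 0.0202, edgeR). Irf1, a transcription factor known to induce the immune subunits and named here for that role with its values known, was at 525, 544 and 565 CPM in KO and 187, 103, 94.0 and 86.9 CPM in KO+NM1 pieces (log2 fold change 2.21, SE 0.29, adjusted p = 0.00129, edgeR). In KO+NM1 piece 01 Gbp2 and Isg15 stayed with the other KO+NM1 pieces. Irf1, Nlrc5, Gbp3, Stat2, Ifit1 and Oas1a were above them and below every KO piece. Irf7, Ifit3 and Mx1 in piece 01 lay among the KO pieces. Irf9 (109 CPM) and Ifngr2 (103 CPM) lay above every KO piece, as did Ifngr1 (157 CPM), there and in the other KO+NM1 pieces.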

How the data were processed

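RNA-seq of 3 KO and 4 KO+NM1 tumor pieces was analysed from raw read counts per Ensembl gene, which the authors deposited after trimming with Trimmomatic 0.36, alignment to GRCm38 with HISAT2 2.0.4, sorting with SAMtools 0.1.19 and counting with HTSeq-count. The HTSeq version, annotation release and strand option are not given in the sources used here. Symbols were taken from GENCODE M21. In R 4.3.3 genes were filtered by filterByExpr of edgeR 4.0.16 (minimum count 10), scaled by TMM and compared, KO minus KO+NM1, by the quasi-likelihood test with Benjamini-Hochberg adjustment over 16887 genes. Genes were called at an adjusted p under 0.05. Standard errors used the moderated dispersion. CPM use TMM library sizes, and levels per kilobase use the APPRIS principal transcript.

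Log2 ratios of raw counts (0.5 added to each) were compared by two-sided exact permutation tests in scipy 1.17.1. The alternatives were other scalings and filters, DESeq2 1.42.0, limma 3.58.1 (voom with sample quality weights), a 2-fold threshold, the piece number as a block, and each library left out in turn. All 21 pairs of libraries differed by more than counting noise (chi-square per degree of freedom 35.2 to 1050). The edgeR fit over genes was tried on simulated counts. The genes, related lists, marker lists and tests were chosen with earlier results of these data known, so no p-value was computed over a list. Some genes of these lists are not reported here. In each role outside the catalytic subunits and activators, the 2 called genes with the largest change in each direction and any gene with the opposite sign were given with values in every piece, and in related lists the 2 largest called changes in each direction. Of the remaining marker lists, endothelial markers summed to 195 to 221 CPM in KO and 1006 to 1344 CPM in KO+NM1, mammary epithelium to 2.6 to 53.3 and 347 to 1488 CPM, and keratinocyte to 3.86 to 1209 and 56.1 to 420 CPM. The depth lets a count of 0 allow up to 0.0991 to 0.148 CPM (3 counts, counting error only).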

Additional observations from a re-analysis of the deposited data

Results flagged for a closer look

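In KO+NM1 piece 01 the level of Psmb8 stood far from the other 3 pieces of its group. Its gap to the nearest piece was 0.894 of the range of the group, above Dixon's 95% critical value for 4 samples. The same share was 0.852 for Psmb9, 0.866 for Psmb10, 0.879 for Psme1, 0.905 for Psme2b and 0.871 for Psmd10, and piece 01 was the high one in each. The log2 ratios of Psmb9 to Psmb6 (0.856) and of Psmb10 to Psmb7 (0.843) were also past the critical value, with piece 01 high. Of 47 values tested in this group 8 passed. These values come from the same 4 libraries, and the ratios reuse genes already counted. A rate of 1 in 20 for independent values thus does not apply, and no conclusion is drawn from the count. The piece also held 2786 CPM of B and plasma cell markers, and the part of these cells was not tested.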

How the results depend on the processing

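Of the 34 proteasome genes called higher in KO, 19 were called in all 16 alternative settings, which do not count the 2-fold threshold, and 0 changed sign in any, and 0 genes were called lower in any setting. The number higher was 34 with all pieces, 12 at a 2-fold threshold and 39 with limma voom, where 25.7%, 17.1% and 41.7% of all genes were higher. With 1 library left out it was 20 to 34, against 16.7% to 35.8% of all genes. It was 21, 20 and 21 without KO pieces 01, 02 and 03, where 16.7% to 17.4% of all genes were called higher. The genes changed over all were 8477, and 12989 with limma voom. Other scalings moved the median of all genes by -0.10 (DESeq2 size factors), -0.16 (upper-quartile) and 0.17 (library size alone), and gave 29, 28 and 38 proteasome genes higher. Of all genes 23.5%, 22.2% and 27.6% were higher in these settings. Keeping every gene with at least 1 count gave 23 proteasome genes higher, against 12.8% of all genes. Psma3 turned to -0.03 with DESeq2 size factors, -0.03 with the DESeq2 Wald test, -0.03 with at least 1 count, -0.09 with upper-quartile scaling, and -0.09, -0.05 and -0.13 without KO piece 02, KO piece 03 and KO+NM1 piece 01, and ranged from -0.13 to 0.10 with 1 library left out. Psma6 turned to 0.15 with library size alone and 0.01 without KO+NM1 piece 03 (range -0.27 to 0.01). Psmc1 turned to -0.00 with upper-quartile scaling, and to -0.01 and -0.07 without KO piece 02 and KO+NM1 piece 01 (range -0.07 to 0.22). None of these values passed the test, and the cause was not tested. With 1 library left out the difference in log2 ratio was 1.01 to 1.81 for Psmb8 to Psmb5, 0.40 to 1.15 for Psmb9 to Psmb6 and 0.77 to 1.37 for Psmb10 to Psmb7, the highest each time without KO+NM1 piece 01. A pseudocount of 5 changed no direction.

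For pieces with the same number, the deviations from the group means had correlations of 0.0802, 0.102 and -0.0165. These were not compared with pairs of unlike numbers, so they do not settle whether the number marks a pairing. With the replicate number as a block, 20 proteasome genes and 17.9% of all genes were higher, and 5699 genes changed. The log2 ratio differences over the 3 pairs of numbers were 1.14, 0.40 and 0.87.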
